A study of Mus musculus with 92 samples.

Results

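Loss of the second copy of Eif4g2 was followed in small intestinal organoids, and the comparison is between 8 of the series' 92 libraries. They were chosen by their titles: 4 libraries of flox/flox organoids and 4 libraries of flox/+ organoids, all grown in ENR medium and given 4-hydroxytamoxifen (4-OHT). The flox/flox organoids had the genotype Eif4g2(flox/flox), Rosa26(CreER), so that recombination removed the loxP-flanked part of both copies, and the flox/+ organoids had Eif4g2(flox/+), Rosa26(CreER), so that the controls lost 1 copy too. A further group of 4 libraries, called CreER-only here, had Eif4g2(+/+), Rosa26(CreER) and entered the same fit of 12 libraries. Every library shared 0.5 µM 4-OHT for 24 h, the CreER transgene, ENR (EGF, Noggin and Rspondin) and collection on day 6, so effects of 4-OHT or of CreER itself are common to the groups. Rosa26 drives CreER in all cell types of the culture. The labels give each library a line name of its own and do not say whether lines came from separate animals, so the p-values measure the spread between these libraries.

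Eif4g2 encodes eIF4G2 (DAP5), a relative of the scaffold protein eIF4G1 that lacks the binding site for the cap-binding protein eIF4E and serves translation initiation on a subset of messages. Small intestinal organoids are epithelial cultures in which crypt-like buds hold Lgr5-expressing stem cells and Paneth cells, while enterocytes and goblet, enteroendocrine and tuft cells arise from them. Wnt and Notch signals maintain the stem cells, and after injury the epithelium can pass through a fetal-like state marked by Ly6a, Clu, annexins and YAP targets. RNA-seq measures transcript levels, so effects on translation itself are not read here.

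Depth was 14790237 to 16835265 counts per library in flox/flox and 15368855 to 24736323 in flox/+ organoids. The first principal component of the 1000 most variable genes held 67.3% of the variance and separated the flox/flox libraries from the other 8. The second held 8.27%. On it flox/flox replicates 1 and 2 stood at 18.4 and 9.76, and replicates 3 and 4 at -16.3 and -10.7. The controls spread on it too, flox/+ libraries from 1.56 to 12.9 and CreER-only libraries from -15.4 to 4.39. The line names of flox/flox replicates 1 and 2 carry numbers lower than those of all other lines with numbers. Whether lines or libraries were prepared at different times is not stated. Genes of the mitochondrial genome took 2.90% ± 0.327 of counts in flox/flox and 2.73% ± 0.296 in flox/+ libraries (SD, n = 4 each, exact two-sided permutation p 0.486, and 0.0286 is the smallest this design allows). Epithelial markers were high in all 8 libraries, summing over 9 genes to 9781 to 11036 CPM (a gene's share of the TMM-scaled counts of a library) in flox/flox and 8388 to 9475 CPM in flox/+. The 13 immune markers summed to 4.31 to 5.88 against 3.98 to 5.28 CPM with Cd3g, Cd8a, Cd4, Adgre1 and Tyrobp at 0 reads, and the 14 stromal and endothelial markers to 1.54 to 2.39 against 1.20 to 3.10 CPM with Col1a2, Col3a1, Des, Dcn, Lum, Cdh5 and Kdr at 0 reads. Bulk RNA cannot tell fewer cells of a type from less RNA per cell.

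Eif4g2 (ENSMUSG00000005610, chromosome 7, 111067750 to 111083030, minus strand, GRCm38) had 261, 269.8, 225 and 220.1 CPM in the flox/flox libraries, 790.3, 802, 821 and 834 CPM in the flox/+ libraries and 1257, 1324, 1335 and 1283 CPM in the CreER-only libraries. The groups did not overlap, and each followed its label. The log2 fold change of flox/flox against flox/+ was -1.73 ± 0.067 (SE) with an edgeR adjusted p of 3.86e-10. Reads from exons outside the deleted part can still be counted, so the remaining level is not a measure of intact message. Of the 138 other tested genes that start within 10 Mb of Eif4g2 on chromosome 7, 64 were called (46.4%), against 46.8% of all tested genes.

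**Figure D1:**
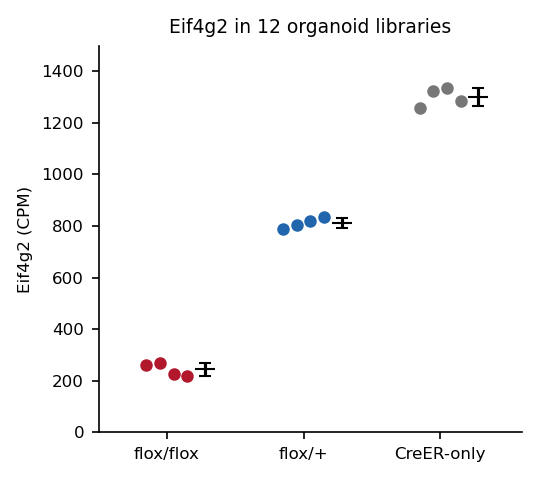
Eif4g2 level in CPM (vertical axis from 0) in each of the 12 organoid libraries given 4-OHT, with mean and SD beside each group of 4. The 3 groups lie apart, with flox/flox lowest at 220.1 to 269.8 CPM and CreER-only highest.

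A gene was called, and is said to have risen or fallen in flox/flox organoids, where the edgeR quasi-likelihood adjusted p was under 0.05. By that rule 6660 of 14220 tested genes (46.8%) changed, 3211 higher (22.6%) and 3449 lower (24.3%), with a median log2 fold change over all genes of -0.014. Calls beyond a doubling or halving were unequal, with 377 genes (2.65%) above a log2 fold change of 1 and 1232 genes (8.66%) below -1. The 4 flox/flox libraries lay entirely above or below the 4 flox/+ libraries at 5977 genes (42% of those tested). Where edgeR called 0 members of a list in a direction (stem, enteroendocrine, tuft and replication genes higher, fetal and sterol genes lower), 0 had an unadjusted p under 0.05 in that direction except 1 replication gene, and DESeq2 called 0 as well. All counts of list members below stand against these shares. Fold changes are log2 values of flox/flox against flox/+ with ± their SE, and levels are CPM in replicates 1 to 4 of each group.

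The 10 largest falls that the rule names covered genes of metabolism, secretion and the crypt, and 9 of them are described. Cym (chromosome 3, 107211293 to 107221732), the milk-clotting protease chymosin, had 0, 1, 0 and 0 reads in flox/flox against 141, 342, 135 and 94 reads in flox/+ organoids. Pooled over the group and scaled for depth this is a 610.0-fold lower level, with a 95% interval from counting error of 109 to 24128. CreER-only organoids had 73.4, 98.8, 82.1 and 34.1 CPM of Cym, above the flox/+ levels of 9.31, 20.6, 7.64 and 3.78 CPM, and the difference between those groups was not called (edgeR adjusted p 0.0863). Esrrg (chromosome 1, 187608791 to 188214885), an orphan nuclear receptor of oxidative metabolism, had 0.869, 0.861, 0.238 and 0.298 CPM in flox/flox and 20.5, 21.4, 30.7 and 24.5 CPM in flox/+ (-5.44 ± 0.35). Cbs (chromosome 17, 31612623 to 31637199), the entry enzyme of transsulfuration from homocysteine, had 0.334, 1.06, 0.356 and 0.657 CPM in flox/flox and 18.0, 21.7, 19.96 and 17.2 CPM in flox/+ (-4.99 ± 0.24). The rule that named these genes required groups that do not overlap.

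Mptx2 (chromosome 1, 173274382 to 173277777), a pentraxin of Paneth cells, had 0.936, 2.98, 1.78 and 2.87 CPM in flox/flox and 143, 44.3, 29.5 and 20.6 CPM in flox/+ (-4.77 ± 0.73). The flox/+ values of Mptx2 spread widely, replicate 1 standing highest. Pla2g5 (chromosome 4, 138799244 to 138863482), a secreted phospholipase, had 1.47, 1.26, 0.535 and 0.836 CPM in flox/flox and 24.96, 25.2, 23.7 and 31.0 CPM in flox/+ (-4.69 ± 0.22). Akr1c14 (chromosome 13, 4049011 to 4090688), an aldo-keto reductase that acts on steroids, had 0.802, 1.66, 2.02 and 3.04 CPM in flox/flox and 44.5, 41.6, 45.6 and 34.0 CPM in flox/+ (-4.43 ± 0.28). Prss12 (chromosome 3, 123446913 to 123506597), the serine protease neurotrypsin, had 2.00, 1.39, 0.475 and 0.597 CPM in flox/flox and 22.6, 20.5, 21.7 and 22.6 CPM in flox/+ (-4.31 ± 0.35). Tnfrsf19 (chromosome 14, 60963875 to 61046490), the receptor Troy of Lgr5-expressing stem cells, had 1.00, 0.132, 0.713 and 0.716 CPM in flox/flox and 8.91, 12.7, 8.09 and 7.60 CPM in flox/+ (-3.84 ± 0.32), and AY761184 (chromosome 8, 21702519 to 21703645), an alpha-defensin, had 6.68, 10.1, 9.51 and 8.06 CPM in flox/flox and 68.5, 96.4, 143 and 121 CPM in flox/+ (-3.64 ± 0.25). Mptx2, Akr1c14 and the defensins have near-identical relatives, so reads may be split among them. The fold change of Mptx2 was -3.86 without flox/+ replicate 1.

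The rule took rises and falls only among genes with groups apart and a mean log2 CPM of at least 3 over the 12 libraries, of which 8 are controls, so genes that are low in the controls can miss it. Rises such as those of Fgf15 (3.72 ± 0.68) and Cav1 (3.18 ± 1.02) were larger than those of the 10 genes. The 10 largest rises under the rule included p53 targets, galectin, S100 and chloride-channel-regulator genes. S100a6 (chromosome 3, 90612882 to 90624181), a small calcium-binding protein, had 158, 214, 390.0 and 344 CPM in flox/flox and 46.9, 49.9, 56.3 and 40.5 CPM in flox/+ (2.51 ± 0.51). Lgals3 (chromosome 14, 47367751 to 47386160), galectin-3, had 62.7, 84.5, 130.2 and 128 CPM in flox/flox and 21.3, 23.5, 21.8 and 21.2 CPM in flox/+ (2.21 ± 0.34). CreER-only organoids had 186, 107, 66.9 and 31.0 CPM of S100a6 and 67.1, 37.4, 48.9 and 21.9 CPM of Lgals3, which reached into the flox/flox range. Eda2r (chromosome X, 97333840 to 97377216), a receptor of ectodysplasin and p53 target, had 15.9, 26.9, 40.4 and 55.6 CPM in flox/flox and 0.594, 7.59, 9.73 and 6.52 CPM in flox/+ (2.49 ± 0.62). Zmat3 (chromosome 3, 32334792 to 32366014), a p53-induced RNA-binding protein, had 131, 146, 165 and 165 CPM in flox/flox and 46.8, 31.9, 31.0 and 32.7 CPM in flox/+ (2.09 ± 0.18). Celsr1 (chromosome 15, 85898929 to 86033777), an atypical cadherin of planar cell polarity, had 58.9, 60.8, 55.1 and 64.6 CPM in flox/flox and 15.8, 9.88, 14.9 and 12.3 CPM in flox/+ (2.18 ± 0.12) and varied least within flox/flox organoids among the 10 genes.

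Clca4a (chromosome 3, 144952480 to 144975045), a chloride channel regulator, had 9.49, 31.6, 15.5 and 28.3 CPM in flox/flox and 6.14, 5.18, 2.21 and 4.18 CPM in flox/+ (2.27 ± 0.45). Clca1 (chromosome 3, 145003817 to 145032776), a protein secreted by goblet cells, had 204, 280.4, 472 and 290.3 CPM in flox/flox and 116, 85.2, 63.6 and 58.2 CPM in flox/+ (1.95 ± 0.33). Both belong to a family of neighbouring paralogs. Ifit1bl1 (chromosome 19, 34592888 to 34601968), of the interferon-induced IFIT family, had 13.5, 14.8, 61.6 and 31.0 CPM in flox/flox and 6.34, 7.53, 6.504 and 5.71 CPM in flox/+ (2.22 ± 0.47). Ptprr (chromosome 10, 116018213 to 116274932), a receptor tyrosine phosphatase, had 17.5, 35.7, 54.1 and 45.2 CPM in flox/flox and 10.4, 10.7, 9.67 and 6.20 CPM in flox/+ (2.06 ± 0.36), and Capg (chromosome 6, 72544391 to 72562983), an actin-capping protein, had 16.6, 31.8, 43.1 and 49.0 CPM in flox/flox and 13.1, 7.95, 7.69 and 7.24 CPM in flox/+ (1.98 ± 0.41). In 8 of these 10 genes flox/flox replicates 1 and 2 lay below replicates 3 and 4, as did 1 of the 10 falls. The fold change of Ifit1bl1 was 1.61 without flox/flox replicate 3.

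**Figure D2:**
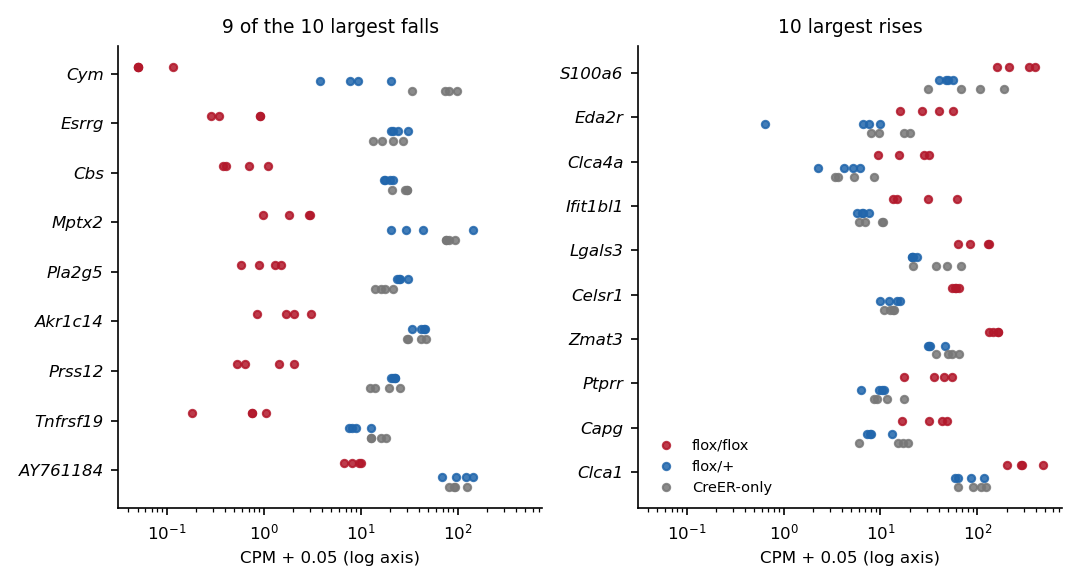
Level of 9 of the 10 largest falls (left) and of the 10 largest rises (right) as CPM + 0.05 on a log axis, 1 point per library for flox/flox, flox/+ and CreER-only organoids. Flox/flox points of the falls lie mostly at or under 3 CPM and away from both other groups, whereas for S100a6, Eda2r and Lgals3 the CreER-only points approach or enter the flox/flox range.

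The same 20 genes were read in cultures with no library in common. The first organoid set compared 3 flox/flox libraries given 4-OHT with 3 given DMSO, and there 5422 of 15297 genes were called (35.4%), 17.2% lower and 18.2% higher. All 10 of the falls were called lower there and 9 of the 10 rises were called higher, the exception being Clca1 at 0.14. The arms of that set differ in 4-OHT as well as in Eif4g2, and this fit did not pair them by line. With a replicate block 6622 genes were called and Clca1 stood at -0.039. In fetal intestinal spheroids given 4-OHT, 6 flox/flox against 5 flox/+ libraries fitted together with the organoids gave 2794 of 15043 genes (18.6%), 10.3% lower and 8.3% higher. Of the falls 9 were called lower in spheroids, and of the rises 1 was called higher. Spheroid libraries were uneven. Flox/flox replicate 4 had 13402 genes detected, against 17530 to 20000 in the other flox/flox spheroids. Mitochondrial genes took 11.1% of counts in flox/+ replicate 4, against 4.82% to 7.04% in the other flox/+ spheroids. No spheroid library was left out in turn, and the part of this spread in the calls was not tested. Between flox/+ and CreER-only organoids, which share the flox/+ libraries with the main comparison, 16 of 14220 genes were called (0.113%), 7 higher (0.0492%) and 9 lower (0.0633%), and none of the 20 was among them.

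**Figure D3:**
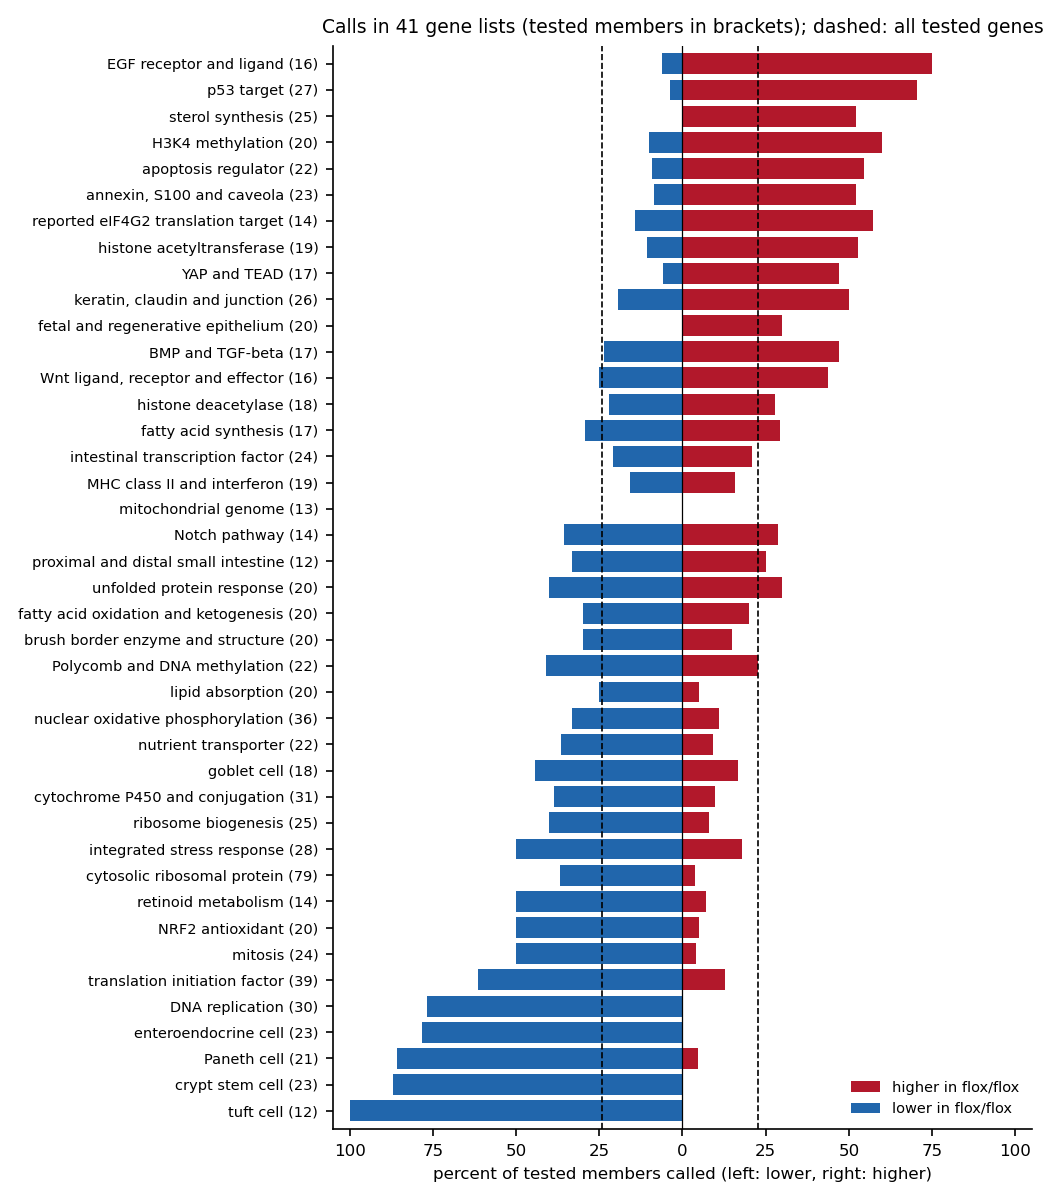
Percent of the tested members of each of 41 gene lists called lower (left) or higher (right) in flox/flox than in flox/+ organoids, with dashed lines at the 24.3% and 22.6% of all tested genes. Tuft cell, stem cell, Paneth cell and enteroendocrine lists extend far to the left, and EGF receptor, p53 target and H3K4 methylation lists to the right.

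Crypt stem cell genes were lower. Of 24 listed genes 23 were tested, 20 fell, 0 rose and 3 were not called, with a median of -0.76, and 10 of the falls were beyond -1. Lgr5, the Rspondin receptor that marks these cells, had 191, 224, 133 and 162 CPM in flox/flox and 277, 334, 342 and 327 CPM in flox/+ (-0.85 ± 0.16, edgeR adjusted p 0.00112). Olfm4, a secreted glycoprotein of crypt base cells, had 1682, 1294, 974 and 1017 CPM in flox/flox and 4838, 5544, 5560.3 and 6775 CPM in flox/+ (-2.19 ± 0.18). The 2 groups did not overlap for either gene, and Olfm4 fell further than Lgr5 in value. Rgmb, a BMP co-receptor, had 66.2, 62.5, 46.9 and 57.0 CPM in flox/flox and 121, 136, 130.1 and 131 CPM in flox/+ (-1.15 ± 0.10). Prom1, a membrane protein of crypt progenitors, had 274, 268, 261 and 264 CPM in flox/flox and 379, 409, 422 and 423 CPM in flox/+ (-0.61 ± 0.051) and varied little within each group. Slc14a1, a urea transporter counted with the stem cell genes, had 0 reads in all 4 flox/flox libraries against 23, 57, 42 and 55 reads in flox/+, at least 50.5-fold lower when set against 3 reads over the group. The list's median was the same with Slc14a1 at that bound. Olfm4 and Slc14a1 were picked after their values were seen.

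Wnt components changed in both directions, 7 higher and 4 lower of 16 tested (median 0.092). Wnt3, the ligand that Paneth cells give to stem cells, had 3.01, 1.99, 2.97 and 2.27 CPM in flox/flox and 12.1, 11.8, 8.26 and 10.0 CPM in flox/+ (-2.04 ± 0.18). Fzd2, a Wnt receptor, fell (-1.10 ± 0.16). Fzd5, the receptor that supports Paneth cell maturation, rose, with 359.8, 373, 401 and 415 CPM in flox/flox and 209.8, 184, 149.8 and 155 CPM in flox/+ (1.15 ± 0.11). Apc, the scaffold of the beta-catenin destruction complex, rose too (0.54 ± 0.061). Sp5, a transcription factor induced by Wnt and a member of the stem cell list, had 6.62, 4.04, 5.35 and 4.89 CPM in flox/flox and 14.2, 21.0, 17.1 and 11.8 CPM in flox/+ (-1.61 ± 0.19). A ligand and a receptor were thus at lower levels and another receptor at higher levels in the same libraries.

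Notch components were mixed as well, 4 higher and 5 lower of 14 tested (median -0.070). Notch1, the receptor of crypt stem cells, had 15.97, 17.5, 15.03 and 14.6 CPM in flox/flox and 40.0, 41.03, 31.8 and 44.7 CPM in flox/+ (-1.32 ± 0.10). Lfng, a glycosyltransferase that tunes Notch receptors, had 6.08, 5.83, 4.57 and 3.52 CPM in flox/flox and 15.8, 17.3, 22.3 and 23.1 CPM in flox/+ (-1.98 ± 0.17). Jag2, a ligand, had 49.3, 49.6, 59.4 and 56.7 CPM in flox/flox and 20.1, 19.7, 24.0 and 21.1 CPM in flox/+ (1.34 ± 0.12) and was higher in all 4 flox/flox libraries. Maml1, a coactivator of the Notch complex, rose (0.80 ± 0.084).

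Secretory lineages are shown first by the upstream sequence of Paneth and stem cell list genes that fell. Wnt signalling acts on crypt genes through TCF factors, and its part in these falls was not tested. RefSeq gives the 250 bases before the start of 27025 genes (GRCm38.p6, 32851 starts), and the motif ATCAAAG, a TCF-type site, was searched on both strands. It occurred in 3.21% of all starts and 3.72% of genes, in 7 of the 14 Paneth genes and in 2 of the 15 stem cell genes that RefSeq's table held. The 7 Paneth genes were Mmp7, Reg3g and 5 alpha-defensins, a family of recent copies. Among other lists, ATCAAAG lay before 2 of 12 Notch genes and 2 of 12 YAP and TEAD genes, and many lists held none. The related string TTCAAAG, which differs in its first letter, lay before 0 of the 14 Paneth genes. It lay before 0 of the 15 stem cell genes too, against 5.19% of all genes. Enrichment of TCF-type sites was not tested. In all, 11 motifs were searched in 41 lists, 451 pairs, and the 2 motifs marked in the sequences here were picked after seeing the matches. Capitals mark the motif on either strand, and each line runs 5′ to 3′ along the gene up to the base before its start. The sequences are Defa20 (chr8:21509008-21509257, plus strand), Defa22 (chr8:21162027-21162276, plus strand), Defa30 (chr8:21134400-21134649, plus strand), Tnfrsf19 (chr14:61037988-61038237, minus strand, 1 of its 2 starts) and Sp5 (chr2:70474673-70474922, plus strand).
Defa20: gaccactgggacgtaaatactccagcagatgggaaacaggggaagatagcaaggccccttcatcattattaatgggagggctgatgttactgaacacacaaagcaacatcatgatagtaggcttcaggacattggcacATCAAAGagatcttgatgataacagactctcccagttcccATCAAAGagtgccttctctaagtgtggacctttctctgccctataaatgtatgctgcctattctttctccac
Defa22: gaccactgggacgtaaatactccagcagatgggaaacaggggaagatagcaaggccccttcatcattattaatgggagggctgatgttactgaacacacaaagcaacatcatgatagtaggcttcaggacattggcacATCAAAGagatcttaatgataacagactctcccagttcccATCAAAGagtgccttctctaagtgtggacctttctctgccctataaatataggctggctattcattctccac
Defa30: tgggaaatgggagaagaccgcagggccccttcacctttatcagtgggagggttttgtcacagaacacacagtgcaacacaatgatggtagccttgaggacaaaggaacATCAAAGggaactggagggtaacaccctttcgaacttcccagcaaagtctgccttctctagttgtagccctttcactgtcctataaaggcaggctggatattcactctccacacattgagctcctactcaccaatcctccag
Tnfrsf19: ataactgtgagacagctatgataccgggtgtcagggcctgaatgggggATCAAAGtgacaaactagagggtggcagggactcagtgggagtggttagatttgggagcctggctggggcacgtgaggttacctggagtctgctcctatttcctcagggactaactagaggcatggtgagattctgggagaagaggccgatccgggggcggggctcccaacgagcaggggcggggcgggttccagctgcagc
Sp5: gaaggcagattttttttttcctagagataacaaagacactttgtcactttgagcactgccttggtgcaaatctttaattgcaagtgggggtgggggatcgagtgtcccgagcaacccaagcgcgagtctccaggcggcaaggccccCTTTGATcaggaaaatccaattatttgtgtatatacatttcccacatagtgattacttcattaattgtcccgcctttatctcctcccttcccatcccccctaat
Defa20 and Defa22 were identical at 245 of 250 positions and both carried the motif 112 and 72 bases before the start. Defa30 carried it once, 142 bases before the start. A match is a string of letters and shows no binding. The genes shown were picked from those that fell, so their direction is no result about the motif. Their transcripts stood at -3.59 ± 0.35 for Defa20, -3.37 ± 0.32 for Defa22 and -2.52 ± 0.13 for Defa30. Tnfrsf19 stood at -3.84 ± 0.32 and Sp5 at -1.61 ± 0.19. Of the 7 Paneth genes with the motif, Reg3g and Defa23 were not called (-0.014 ± 0.37 and -0.24 ± 1.17).

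Paneth cell genes fell by more than any other secretory list but the tuft list in median. Of 21 tested genes 18 fell, 1 rose and 2 were not called, with a median of -2.29 and 16 falls beyond -1. Lyz1, the lysozyme that fills Paneth granules, had 529.5, 577, 464 and 378 CPM in flox/flox and 2323, 1805, 1572 and 1594 CPM in flox/+ (-1.90 ± 0.15, edgeR adjusted p 1.6e-06). Defa26, an alpha-defensin, had 6.68, 8.94, 6.89 and 7.16 CPM in flox/flox and 38.2, 39.3, 41.3 and 35.1 CPM in flox/+ (-2.37 ± 0.11). Clps, colipase, had 10.5, 12.9, 14.4 and 11.5 CPM in flox/flox and 55.3, 69.0, 65.9 and 52.0 CPM in flox/+ (-2.29 ± 0.12). Every flox/flox library lay below every flox/+ library for these genes. Reg3b, an antimicrobial lectin also made by enterocytes, was the exception with 237, 187, 254 and 264 CPM in flox/flox and 193, 154, 106 and 56.4 CPM in flox/+ (0.89 ± 0.31, edgeR adjusted p 0.0395). Reads of defensins and Reg3 genes may be shared with paralogs. Leaving out single libraries ended the call on Reg3b (without flox/flox replicates 1, 3 or 4 or flox/+ replicate 3, edgeR adjusted p 0.0722 to 0.0981). Of the Paneth cell genes, those called higher numbered 0 without flox/flox replicates 1, 3 or 4 or flox/+ replicate 3.

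Tuft cell genes were lower throughout. All 12 tested of 15 listed genes fell beyond -1, with a median of -2.47, and 3 did not pass the filter on low counts. Dclk1, a kinase that marks these chemosensory cells, had 3.07, 1.99, 2.61 and 1.97 CPM in flox/flox and 8.91, 11.3, 13.5 and 17.6 CPM in flox/+ (-2.42 ± 0.20). Trpm5, the cation channel of their taste-like signalling, had 3.07, 2.58, 1.37 and 2.69 CPM in flox/flox and 10.4, 11.9, 13.01 and 15.3 CPM in flox/+ (-2.39 ± 0.20). The highest flox/flox value was under the lowest flox/+ value in both, and neither gene was abundant in the controls.

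Enteroendocrine genes fell in 18 of 23 tested, with 0 higher, 5 not called and a median of -1.38. Chga, the granule protein chromogranin A, had 26.1, 28.6, 23.6 and 16.1 CPM in flox/flox and 49.4, 59.0, 93.0 and 81.1 CPM in flox/+ (-1.59 ± 0.22). Chgb, chromogranin B, had 263, 228, 253 and 207 CPM in flox/flox and 525, 632, 688 and 556 CPM in flox/+ (-1.34 ± 0.094). Tph1, which makes serotonin in enterochromaffin cells, had 7.15, 8.08, 6.95 and 5.73 CPM in flox/flox and 15.3, 20.2, 21.9 and 18.8 CPM in flox/+ (-1.45 ± 0.14). Chga spread more among flox/+ libraries than Chgb, and in all 3 genes the groups lay apart.

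Goblet cell genes did not move as one. Of 18 tested genes 8 fell, 3 rose and 7 were not called (median -0.17). Muc2, the main secreted mucin of the intestine, had 59.1, 54.7, 52.3 and 47.8 CPM in flox/flox and 72.3, 58.4, 48.0 and 68.4 CPM in flox/+ (-0.21 ± 0.14, edgeR adjusted p 0.26) with overlapping groups. Spink4, a small protease inhibitor of goblet cells, had 132, 126, 134 and 116 CPM in flox/flox and 288, 273, 356 and 301 CPM in flox/+ (-1.26 ± 0.079). Creb3l4, a transcription factor of the secretory pathway, had 3.81, 3.44, 3.56 and 2.81 CPM in flox/flox and 13.9, 16.6, 12.7 and 14.9 CPM in flox/+ (-2.09 ± 0.14). Guca2a, the hormone guanylin, rose with 80.9, 104, 154 and 139.8 CPM in flox/flox and 50.9, 37.4, 50.4 and 52.3 CPM in flox/+ (1.32 ± 0.27), and Clca1 rose as given above. Of these 5 genes 2 were thus lower, 2 higher and 1 not called.

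**Figure D4:**
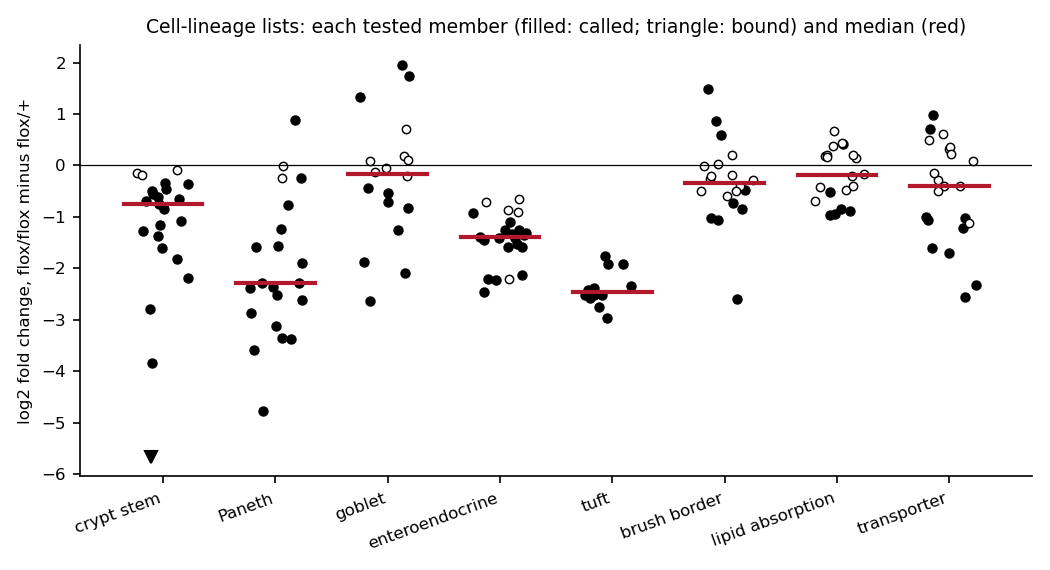
Log2 fold change of flox/flox against flox/+ organoids for each tested member of 8 cell-lineage lists, filled where called, with the list median in red and Slc14a1 drawn as a triangle at its bound. All tuft points and nearly all Paneth, stem and enteroendocrine points lie below 0, while brush border, lipid absorption and transporter points lie on both sides.

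Enterocyte genes were divided. Of 20 tested brush border genes 3 rose and 6 fell (median -0.34), of 20 lipid absorption genes 1 rose and 5 fell (median -0.18), and of 22 nutrient transporters 2 rose and 8 fell (median -0.40). The shares that fell were 30%, 25% and 36.4%, against 24.3% of all genes. Alpi, intestinal alkaline phosphatase, had 77.5, 97.4, 225 and 361 CPM in flox/flox and 277, 174, 125 and 91.4 CPM in flox/+ (0.20 ± 0.56, edgeR adjusted p 0.802). Replicates 3 and 4 of flox/flox were high in Alpi and replicates 1 and 2 low, and the groups overlapped. Lct, lactase, had 11.4, 9.27, 7.96 and 9.79 CPM in flox/flox and 64.3, 65.3, 53.4 and 49.2 CPM in flox/+ (-2.60 ± 0.24). Ush1c, harmonin of the links between microvilli, fell (-1.06 ± 0.073). Mep1b, a meprin metalloprotease of the brush border, had 286, 333, 480.2 and 519 CPM in flox/flox and 196, 157, 116 and 109 CPM in flox/+ (1.49 ± 0.27). Mgam, maltase-glucoamylase, rose (0.59 ± 0.12). Lactase thus fell while a second disaccharidase, in the same libraries, rose.

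Apoa1, an apolipoprotein of chylomicrons and HDL, had 661, 792, 1352 and 1426 CPM in flox/flox and 1279, 966, 548 and 465 CPM in flox/+ (0.38 ± 0.38) and was not called. Fabp1, a fatty acid binding protein, had 410.1, 430.0, 576 and 584 CPM in flox/flox and 1109, 1038, 919.8 and 630.0 CPM in flox/+ (-0.89 ± 0.20). Plin2, the coat protein of lipid droplets, fell (-0.84 ± 0.11), and Scarb1, an HDL receptor, rose (0.43 ± 0.12). Slc5a1, the sodium-glucose cotransporter, overlapped between groups with 688, 895, 1023 and 1187 CPM in flox/flox and 1195, 919, 743 and 723 CPM in flox/+ (0.084 ± 0.21). Slc7a8, an amino acid exchanger, had 9.42, 7.49, 7.49 and 6.45 CPM in flox/flox and 57.4, 47.0, 32.3 and 45.3 CPM in flox/+ (-2.56 ± 0.16) and did not overlap. The subunits of the bile acid exporter differed in direction, Slc51a at 0.70 ± 0.19 and Slc51b at -2.32 ± 0.27. Slc6a20a, a proline transporter, rose (0.99 ± 0.32). Some calls were lost when a library was left out, on Slc6a20a (without flox/flox replicates 3 or 4 or flox/+ replicates 2, 3 or 4, edgeR adjusted p 0.0625 to 0.0863). The value of Slc5a1 had the opposite sign without flox/flox replicate 4 or flox/+ replicate 4 (-0.040 to -0.0062). The value of Alpi had the opposite sign without flox/flox replicate 4 or flox/+ replicate 4 (-0.31 to -0.0099). Of the nutrient transporter genes, those called higher numbered 1 without flox/flox replicates 3 or 4 or flox/+ replicates 2, 3 or 4. Of the lipid absorption genes, those called higher numbered 2 without flox/flox replicate 1 or flox/+ replicate 1. Of the lipid absorption genes, those called lower numbered 2 without flox/flox replicates 1 or 2 or flox/+ replicates 1 or 2.

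Transcription factors of intestinal identity had 5 higher and 5 lower of 24 tested, and no called member was beyond a log2 fold change of 1 in either direction. Cdx1, a homeobox factor of intestinal fate, had 137, 124, 112 and 129.7 CPM in flox/flox and 143, 136, 125 and 143 CPM in flox/+ (-0.12 ± 0.075) and was not called. Isx, a homeobox repressor of vitamin A uptake, rose (0.54 ± 0.072). Gata4, a factor of the jejunum, rose (0.37 ± 0.060). Vdr, the vitamin D receptor, fell (-0.48 ± 0.10), and Nr1h4, the bile acid receptor FXR, fell (-0.58 ± 0.14). Fgf15, a hormone that FXR induces in the ileum, had 1.07, 3.31, 5.11 and 4.12 CPM in flox/flox and 0.132, 0.301, 0.226 and 0.322 CPM in flox/+ (3.72 ± 0.68, edgeR adjusted p 0.000535). Fgf15 was therefore higher and its regulator lower in the same comparison, at low levels of Fgf15 throughout. The list of proximal and distal genes, which holds Gata4, Lct, Fgf15 and Slc51b, had 3 higher and 4 lower of 12 tested (median -0.24). Of the intestinal transcription factor genes, those called higher numbered 8 without flox/+ replicate 1.

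Of 20 tested genes of the fetal and regenerative state 6 rose and 0 fell, a share of 30% against 22.6% of all genes higher. Their median was 0.75, and it ran from 0.37 without flox/flox replicate 3 to 0.90 without flox/+ replicate 3. Ly6a, the surface marker Sca-1, had 1.20, 3.64, 18.4 and 13.01 CPM in flox/flox and 15.3, 11.7, 17.8 and 10.6 CPM in flox/+ (-0.59 ± 0.59, edgeR adjusted p 0.451). Clu, clusterin, the marker of revival stem cells, had 51.4, 59.1, 192 and 89.7 CPM in flox/flox and 227, 169.7, 144 and 147 CPM in flox/+ (-0.81 ± 0.49, edgeR adjusted p 0.209). In both genes flox/flox replicates 1 and 2 lay below all flox/+ libraries and replicate 3 within or above their range. Tubb6, a beta-tubulin, had 6.55, 7.22, 7.60 and 6.45 CPM in flox/flox and 3.43, 3.01, 3.39 and 4.02 CPM in flox/+ (1.00 ± 0.16). Areg, an EGF receptor ligand of repair, had 69.5, 89.8, 118 and 87.7 CPM in flox/flox and 48.0, 52.1, 62.5 and 49.5 CPM in flox/+ (0.79 ± 0.14). The groups did not overlap for Tubb6 or Areg, and replicates 1 and 2 did not stand apart from replicates 3 and 4 in Tubb6. Cav1, the caveolar coat protein, had 0.2, 0.994, 10.3 and 4.78 CPM in flox/flox and 0.594, 0.301, 0.452 and 0.443 CPM in flox/+ (3.18 ± 1.02), and its partner Cavin1 had 11.3, 13.6, 38.1 and 21.4 CPM in flox/flox and 4.56, 6.27, 9.28 and 5.91 CPM in flox/+ (1.70 ± 0.37). Cav1 was thus near the flox/+ level in replicates 1 and 2 and high in replicates 3 and 4, and its fold change was 2.16 without flox/flox replicate 3. Clu, Cav1 and Cavin1 were picked after their values were seen. Without certain libraries the threshold was missed by Cav1 (without flox/flox replicate 3 or flox/+ replicates 1, 2, 3 or 4, edgeR adjusted p 0.0506 to 0.0779). Clu passed the threshold without flox/flox replicate 3 (-1.36, edgeR adjusted p 0.0329). Of the fetal and regenerative epithelium genes, those called higher numbered 11 without flox/flox replicate 1. Of the fetal and regenerative epithelium genes, those called lower numbered 1 without flox/flox replicate 3.

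The targeted gene Eif4g2 was higher in flox/flox replicates 1 and 2 than in replicates 3 and 4, standing at 261, 269.8, 225 and 220.1 CPM in replicates 1 to 4, and Ep300 and Tead1 varied little among the 4 lines. Line, and whatever else differs between these libraries, cannot be told apart.

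**Figure D5:**
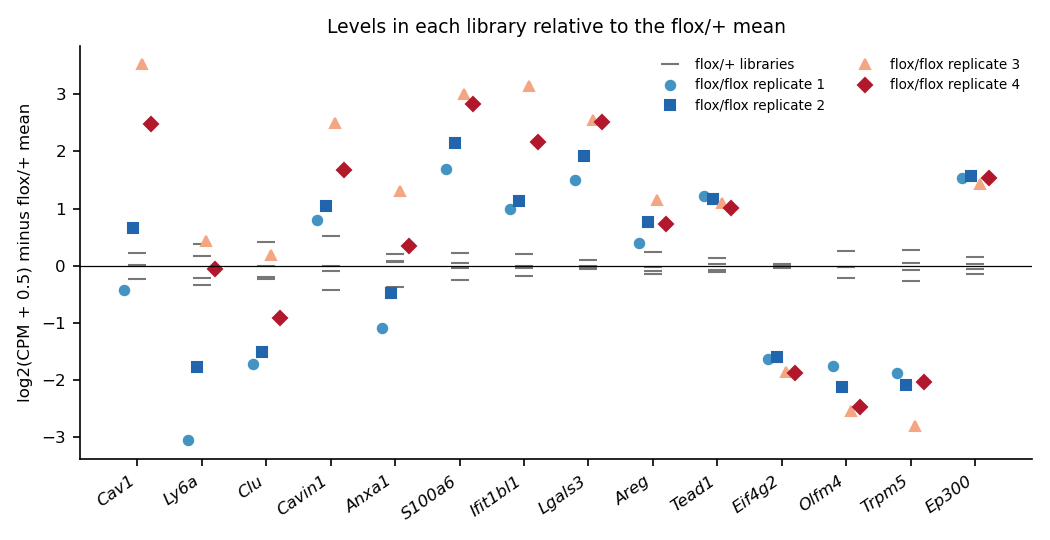
Level of 14 genes in each library as log2(CPM + 0.5) minus the flox/+ mean, with flox/+ libraries as dashes and the 4 flox/flox replicates as coloured symbols. Replicates 1 and 2 lie below replicates 3 and 4 for Cav1, Ly6a, Clu, Cavin1, Anxa1, S100a6, Ifit1bl1 and Lgals3. The 4 lines lie close together for Tead1, Eif4g2 and Ep300, with replicates 1 and 2 slightly above replicates 3 and 4 for Tead1 and Eif4g2.

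YAP and TEAD genes rose in 8 and fell in 1 of 17 tested (median 0.50). Cyr61, a matricellular target, had 18.4, 23.3, 44.9 and 23.6 CPM in flox/flox and 27.1, 25.4, 32.5 and 26.4 CPM in flox/+ (-0.012 ± 0.23). Tead1, a DNA-binding partner of YAP, had 167, 160.4, 153 and 145 CPM in flox/flox and 66.5, 78.4, 73.5 and 68.0 CPM in flox/+ (1.13 ± 0.062), and Yap1, the coactivator itself, had 257, 256, 252 and 232 CPM in flox/flox and 176, 170.1, 181 and 181 CPM in flox/+ (0.50 ± 0.050). Tead2 went the other way with 4.41, 4.37, 4.81 and 4.89 CPM in flox/flox and 9.44, 17.4, 17.8 and 14.6 CPM in flox/+ (-1.68 ± 0.16), so 2 TEAD factors moved in opposite directions with no overlap in either. Cyr61 passed the threshold without flox/flox replicate 3 (-0.35, edgeR adjusted p 0.0233). The value of Cyr61 had the opposite sign without flox/flox replicates 1, 2 or 4 or flox/+ replicate 3 (0.059 to 0.14). Of the YAP and TEAD genes, those called lower numbered 2 without flox/flox replicate 3.

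Annexin, S100 and caveola genes rose in 12 and fell in 2 of 23 tested (median 0.64). Anxa1, a phospholipid-binding protein, had 19.0, 29.4, 103 and 52.5 CPM in flox/flox and 43.5, 43.0, 47.6 and 31.7 CPM in flox/+ (0.30 ± 0.46) and split by line. Anxa2 had 660.5, 797, 859 and 736 CPM in flox/flox and 401, 393, 372 and 388 CPM in flox/+ (0.97 ± 0.092), and S100a14 had 67.2, 76.9, 81.3 and 89.0 CPM in flox/flox and 40.5, 38.7, 29.2 and 28.6 CPM in flox/+ (1.20 ± 0.15), both higher in every flox/flox library. Anxa6 fell from a low level, with 0.869, 0.397, 1.07 and 0.895 CPM in flox/flox and 6.60, 7.05, 8.14 and 6.96 CPM in flox/+ (-3.13 ± 0.23). S100g, the calcium carrier calbindin-D9k that vitamin D induces, fell (-1.76 ± 0.25). Keratin, claudin and junction genes rose in 13 and fell in 5 of 26 (median 0.32). Krt7, a keratin, stood at 0.49 ± 0.19 with an edgeR adjusted p of 0.0523. The adjusted p of Krt7 was 0.00925 with the 8 libraries alone in edgeR, 0.00831 with DESeq2, 0.0182 with the replicate block and 0.0389 without flox/flox replicate 1, all under the threshold. Tjp1, the tight junction scaffold ZO-1, had 322, 367, 504 and 418 CPM in flox/flox and 212, 213, 214 and 197 CPM in flox/+ (0.95 ± 0.11). Cldn7 rose (0.40 ± 0.044), whereas Cldn2, a pore-forming claudin of crypts, fell (-0.57 ± 0.064), as did Jup, plakoglobin (-0.43 ± 0.072). The value of Anxa1 had the opposite sign without flox/flox replicate 3 (-0.29).

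Of 16 tested EGF receptor and ligand genes 12 rose (75%) and 1 fell (median 0.54), none of the rises beyond 1. Egfr itself had 69.2, 74.9, 76.8 and 74.1 CPM in flox/flox and 62.3, 61.8, 67.1 and 69.0 CPM in flox/+ (0.18 ± 0.065). Etv5, a transcription factor induced by ERK, rose (0.69 ± 0.082), and Errfi1, a feedback inhibitor of EGFR, rose (0.47 ± 0.059). Egf, the ligand, fell from a low level (-1.23 ± 0.28). ENR medium supplies EGF to all groups. Of 17 BMP and TGF-beta genes 8 rose and 4 fell (median 0.16). Bmp2, a ligand of differentiated epithelium, had 22.3, 26.4, 42.2 and 32.8 CPM in flox/flox and 12.3, 14.8, 10.4 and 10.5 CPM in flox/+ (1.37 ± 0.24). Tgfb1 had 15.9, 12.7, 13.4 and 12.5 CPM in flox/flox and 3.76, 3.07, 4.02 and 3.34 CPM in flox/+ (1.94 ± 0.17). Bmpr2, a type II receptor, rose (0.79 ± 0.070). Bmp7 (-0.77 ± 0.16) and Tgif1, a repressor of SMAD signalling (-0.74 ± 0.072), fell. Leaving out single libraries ended the call on Egfr (without flox/flox replicates 2, 3 or 4 or flox/+ replicates 1 or 2, edgeR adjusted p 0.0583 to 0.097). Of the BMP and TGF-beta genes, those called higher numbered 5 without flox/flox replicate 2 or flox/+ replicates 1 or 2. Of the BMP and TGF-beta genes, those called lower numbered 2 without flox/+ replicate 3. Of the EGF receptor and ligand genes, those called lower numbered 2 without flox/flox replicates 1 or 2.

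Targets of p53 were higher as a group. Of 27 tested genes 19 rose (70.4%, against 22.6% of all genes), 1 fell and 7 were not called, with a median of 0.66. Cdkn1a, the cell cycle inhibitor p21, had 101.2, 135, 160.1 and 165 CPM in flox/flox and 123, 94.9, 93.4 and 88.8 CPM in flox/+ (0.49 ± 0.18, edgeR adjusted p 0.0404), and flox/flox replicate 1 lay within the flox/+ range. Tnfrsf10b, the TRAIL death receptor, had 40.2, 48.6, 59.5 and 57.4 CPM in flox/flox and 20.4, 15.5, 14.1 and 15.6 CPM in flox/+ (1.65 ± 0.14). Apaf1, the core of the apoptosome, had 112, 125, 113 and 111 CPM in flox/flox and 59.7, 57.5, 62.6 and 61.2 CPM in flox/+ (0.93 ± 0.073). Btg2, an antiproliferative p53 target, was the gene that fell, with 16.6, 18.8, 23.1 and 23.2 CPM in flox/flox and 55.6, 49.0, 49.6 and 43.0 CPM in flox/+ (-1.27 ± 0.11). Trp53 itself was slightly lower (-0.23 ± 0.086, edgeR adjusted p 0.0415). Apoptosis regulators rose in 12 and fell in 2 of 22 tested (median 0.32). Bcl2, the founding survival factor, stood at 0.14 ± 0.087. Xiap, a caspase inhibitor, rose (0.54 ± 0.065). Casp6, a caspase, fell (-0.68 ± 0.066). Members that rose therefore included both promoters and inhibitors of cell death. Some calls were lost when a library was left out, on Cdkn1a (without flox/flox replicates 2, 3 or 4 or flox/+ replicates 2, 3 or 4, edgeR adjusted p 0.0631 to 0.109) and Trp53 (without flox/flox replicates 1 or 2 or flox/+ replicates 2, 3 or 4, edgeR adjusted p 0.0557 to 0.125). Of the reported eIF4G2 translation target genes, those called lower numbered 1 without flox/flox replicates 1 or 2 or flox/+ replicates 2, 3 or 4.

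Messages reported elsewhere as translated with eIF4G2 rose in 8 and fell in 2 of 14 tested (median 0.36). Besides Apaf1, Sos1, the exchange factor that activates RAS, had 151, 157, 147 and 158 CPM in flox/flox and 84.4, 78.7, 74.1 and 79.9 CPM in flox/+ (0.95 ± 0.056). Rock1, a kinase of the actin cytoskeleton, had 229, 239.7, 214 and 204 CPM in flox/flox and 129, 132, 132 and 134 CPM in flox/+ (0.75 ± 0.056). Hmgn3, a nucleosome-binding protein, fell (-1.17 ± 0.28), as did Trp53. These are transcript levels of the targets, with no protein measured.

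Stress pathways gave a divided picture. Integrated stress response genes fell in 14 and rose in 5 of 28 tested (median -0.16). Atf4, the transcription factor of the response, rose, with 317, 321, 288 and 286 CPM in flox/flox and 268, 226, 230.2 and 229.9 CPM in flox/+ (0.35 ± 0.069). Its partner Cebpg rose (0.37 ± 0.050), and Ppp1r15a, which directs dephosphorylation of eIF2 alpha, rose (0.91 ± 0.13). Nupr1, a stress-induced chromatin protein downstream of Atf4, had 9.56, 10.1, 8.67 and 8.30 CPM in flox/flox and 22.8, 30.5, 31.7 and 30.4 CPM in flox/+ (-1.66 ± 0.11). Trib3, a pseudokinase and Atf4 target, had 7.15, 6.69, 4.04 and 4.30 CPM in flox/flox and 12.1, 14.5, 14.99 and 13.6 CPM in flox/+ (-1.32 ± 0.17). Atf4 was thus higher and these targets lower, without overlap between groups. Of 20 unfolded protein response genes 6 rose and 8 fell (median -0.016). Hspa5, the chaperone BiP, rose slightly (0.19 ± 0.054), and Hyou1 (0.40 ± 0.069) and Syvn1 (0.31 ± 0.080) rose. Herpud1, of protein degradation from the endoplasmic reticulum, fell (-0.72 ± 0.069), as did Sdf2l1, a cochaperone (-1.14 ± 0.14).

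Translation initiation factors fell more often than they rose. Of 39 tested initiation factors 24 fell (61.5%) and 5 rose, 0 beyond 1 in either direction apart from the targeted gene, which is not in the list (median -0.21). Eif4g1, the main eIF4G scaffold, had 995, 915, 841 and 926 CPM in flox/flox and 1062, 1065, 1056 and 1054 CPM in flox/+ (-0.20 ± 0.055). Eif4g3, another eIF4G, had 148, 144, 138 and 151 CPM in flox/flox and 92.4, 91.9, 94.6 and 99.4 CPM in flox/+ (0.62 ± 0.051). Of the paralogs of the deleted gene, one was therefore slightly lower and one higher. Eif1, which guards start codon choice, had 729.8, 723, 821 and 697 CPM in flox/flox and 402, 406, 433 and 412 CPM in flox/+ (0.85 ± 0.056). Pdcd4, an inhibitor of eIF4A, had 91.5, 89.3, 93.9 and 82.3 CPM in flox/flox and 156, 150.2, 158 and 161 CPM in flox/+ (-0.81 ± 0.051). Pabpc1, the poly(A)-binding protein, fell (-0.49 ± 0.053).

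Cytosolic ribosomal protein genes fell in 29 and rose in 3 of 79 (median -0.14), and ribosome biogenesis genes fell in 10 and rose in 2 of 25 (median -0.11). Rpl3 was not called (-0.042 ± 0.065). Rpl38, a small protein of the large subunit, had 70.1, 70.9, 66.1 and 59.4 CPM in flox/flox and 108, 115, 151 and 122 CPM in flox/+ (-0.90 ± 0.11), and Rpl11 fell (-0.39 ± 0.069). Rps4x (0.19 ± 0.060) and Rpl29 (0.22 ± 0.073) were slightly higher. Nop56 was not called (0.082 ± 0.065). Fbl, the methyltransferase fibrillarin, fell (-0.52 ± 0.061), as did Gar1, of the pseudouridylation complex (-0.88 ± 0.13). Utp20 (0.30 ± 0.064) and Heatr1 (0.21 ± 0.070), of the small-subunit processome, rose. Over all tested genes the fold change moved with the gene length deposited beside the counts. The median was -0.13 with 9.73% called higher among the 2846 shortest genes, and 0.086 with 34.9% called higher among the 2844 longest. The median length was 1739 bases over the ribosomal protein genes and 3970.0 over all tested genes. The part of length in these counts was not tested. Without certain libraries the threshold was missed by Rps4x (without flox/+ replicates 1 or 2, edgeR adjusted p 0.0511 to 0.0544), Rpl29 (without flox/flox replicates 2 or 3 or flox/+ replicates 1 or 2, edgeR adjusted p 0.056 to 0.0806) and Heatr1 (without flox/flox replicates 1 or 2 or flox/+ replicates 2, 3 or 4, edgeR adjusted p 0.0542 to 0.0885). The value of Rpl3 had the opposite sign without flox/flox replicate 4 (0.013). Of the cytosolic ribosomal protein genes, those called higher numbered 0 without flox/+ replicates 1 or 2, 1 without flox/flox replicates 2 or 3 and 7 without flox/flox replicate 4. Of the ribosome biogenesis genes, those called higher numbered 1 without flox/flox replicates 1 or 2 or flox/+ replicates 2 or 4.

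Histone-modifying enzymes rose among acetyltransferases and H3K4 methylation genes. Of 19 acetyltransferase genes 10 rose and 2 fell (median 0.19), and of 20 H3K4 methylation genes 12 rose and 2 fell (median 0.22). Ep300, the acetyltransferase p300, had 329.8, 339, 309 and 331 CPM in flox/flox and 127, 116, 103 and 110.3 CPM in flox/+ (1.52 ± 0.067, edgeR adjusted p 8.67e-10). Crebbp, its paralog CBP, had 137, 132, 132 and 142 CPM in flox/flox and 63.0, 57.6, 53.2 and 62.4 CPM in flox/+ (1.20 ± 0.065). Values varied little within each group, and the groups lay far apart. Kat8 (-0.59 ± 0.085) and Hat1 (-0.47 ± 0.086), other acetyltransferases, fell. Kmt2a, an H3K4 methyltransferase, was not called (-0.011 ± 0.091). Hcfc1, a cofactor of SET1 complexes, rose (0.53 ± 0.078), as did the demethylase Kdm5c (0.53 ± 0.062). Ash2l (-0.37 ± 0.052) and Dpy30 (-0.20 ± 0.075), core subunits shared by the methyltransferase complexes, fell. The median length was 7895 bases over the acetyltransferase and 9282.5 over the H3K4 methylation genes, beside the trend with length given above, and its part in these rises was not tested. Leaving out single libraries ended the call on Dpy30 (without flox/flox replicates 1, 3 or 4 or flox/+ replicates 2, 3 or 4, edgeR adjusted p 0.0573 to 0.115). The value of Kmt2a had the opposite sign without flox/flox replicate 3 or flox/+ replicates 1 or 4 (0.017 to 0.057). Of the H3K4 methylation genes, those called lower numbered 1 without flox/flox replicates 1, 3 or 4 or flox/+ replicates 2, 3 or 4.

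Deacetylase genes were close to the background, 5 higher and 4 lower of 18 (median 0.023). Hdac1 was not called (0.083 ± 0.046). Rcor1, a subunit of the CoREST complex, rose (0.62 ± 0.057), and Hdac4 rose (0.54 ± 0.071). Hdac11 had 22.3, 20.1, 19.1 and 18.0 CPM in flox/flox and 41.1, 38.7, 40.4 and 43.8 CPM in flox/+ (-1.05 ± 0.083), and Hdac5 fell (-0.25 ± 0.071). Polycomb and DNA methylation genes rose in 5 and fell in 9 of 22 (median -0.060). Ezh1 was not called (0.13 ± 0.079). Bmi1, a subunit of Polycomb repressive complex 1, rose (0.67 ± 0.076), as did the dioxygenase Tet3 (0.40 ± 0.10). Uhrf1, which couples DNA methylation to replication, fell (-0.68 ± 0.10), as did Cbx2 (-0.82 ± 0.14). Of the Polycomb and DNA methylation genes, those called higher numbered 3 without flox/flox replicate 2 or flox/+ replicates 2 or 4.

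DNA replication genes fell in 23 of 30 tested (76.7%, against 24.3% of all genes) with 0 higher and 0 beyond -1 (median -0.39). Mcm2, a subunit of the replicative helicase, had 154, 132, 116 and 137 CPM in flox/flox and 195, 198, 215 and 211 CPM in flox/+ (-0.61 ± 0.077). Tk1, thymidine kinase of S phase, had 41.7, 43.1, 34.6 and 38.6 CPM in flox/flox and 64.1, 66.6, 80.3 and 77.2 CPM in flox/+ (-0.87 ± 0.094). Tyms, thymidylate synthase, had 51.4, 46.0, 41.3 and 39.6 CPM in flox/flox and 71.2, 71.0, 75.2 and 76.2 CPM in flox/+ (-0.72 ± 0.082). The differences were small against those of lineage genes, yet the groups did not overlap. Mitosis genes fell in 12 and rose in 1 of 24 (median -0.21). Mki67, the proliferation marker Ki-67, had 502, 465, 365 and 393 CPM in flox/flox and 447, 486, 482 and 513 CPM in flox/+ (-0.16 ± 0.090, edgeR adjusted p 0.16) and overlapped. Birc5, survivin, fell (-0.55 ± 0.090), as did the spindle checkpoint kinase Ttk (-0.57 ± 0.10), and Kif23, a kinesin of the midzone, was slightly higher (0.20 ± 0.060). Mki67 passed the threshold without flox/flox replicate 1 (-0.24, edgeR adjusted p 0.0294). Of the DNA replication genes, those called higher numbered 1 without flox/flox replicate 3.

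Starts of replication genes are shown because the motif TTTGGCGC, an E2F-type site, lay before 3 of the 25 genes of this list in RefSeq's table (Mcm5, Mcm6 and Pola1), against 0.417% of all starts and 0.485% of genes. The 250 bases before the start are given for Mcm5 (chr8:75109259-75109508, plus strand) and Mcm6 (chr1:128359706-128359955, minus strand) in GRCm38.p6, with the motif on either strand in capitals.
Mcm5: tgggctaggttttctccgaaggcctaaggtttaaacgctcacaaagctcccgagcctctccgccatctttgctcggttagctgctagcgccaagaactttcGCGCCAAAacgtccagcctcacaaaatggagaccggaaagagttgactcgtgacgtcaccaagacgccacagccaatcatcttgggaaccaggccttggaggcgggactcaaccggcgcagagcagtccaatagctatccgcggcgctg
Mcm6: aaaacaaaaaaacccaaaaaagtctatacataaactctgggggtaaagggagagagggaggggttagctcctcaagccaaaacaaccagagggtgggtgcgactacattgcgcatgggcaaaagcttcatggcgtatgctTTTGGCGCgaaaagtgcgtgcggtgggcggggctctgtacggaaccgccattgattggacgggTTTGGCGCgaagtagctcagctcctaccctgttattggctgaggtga
Mcm6 held the motif 110 and 47 bases before its start and Mcm5 once, 149 bases before. Both helicase subunits fell, Mcm5 with 194, 176, 138 and 153 CPM in flox/flox and 214, 239, 248 and 248 CPM in flox/+ (-0.52 ± 0.093) and Mcm6 with 252, 231, 206 and 208 CPM in flox/flox and 280.1, 307, 319.8 and 319 CPM in flox/+ (-0.45 ± 0.073). The other 22 of the 25 genes held no such string in this window. Of the 30 tested replication genes 23 fell, so the falls of Mcm5 and Mcm6 are no result about the motif. TTTGGCGC also lay before 2 of 17 MHC class II and interferon genes, 2 of 26 nuclear oxidative phosphorylation genes and 1 of 11 retinoid genes. Most other lists held none, and a match shows no binding.

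Sterol synthesis genes rose in 13 of 25 tested with 0 lower and 0 beyond 1 (median 0.27). Tm7sf2, a sterol reductase of the pathway, had 107, 124, 101.3 and 127 CPM in flox/flox and 74.1, 73.5, 81.2 and 74.9 CPM in flox/+ (0.60 ± 0.10). Fatty acid synthesis was divided, 5 higher and 5 lower of 17 (median 0.17). Fasn, fatty acid synthase, was not called (0.17 ± 0.12). The elongases Elovl6 (0.51 ± 0.072) and Elovl1 (0.43 ± 0.073) rose. Fads2, a desaturase, fell (-0.74 ± 0.11), as did Mlxipl, the carbohydrate-sensing factor ChREBP (-0.80 ± 0.10). Fasn passed the threshold without flox/flox replicate 3 (0.30, edgeR adjusted p 0.00458). Of the fatty acid synthesis genes, those called higher numbered 3 without flox/flox replicates 1, 2 or 4 or flox/+ replicates 1, 2 or 3. Of the fatty acid synthesis genes, those called lower numbered 3 without flox/flox replicate 3 or flox/+ replicate 2.

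Fatty acid oxidation and ketogenesis genes rose in 4 and fell in 6 of 20 (median 0.030). The falls were the larger changes, and 4 of them were beyond -1. Acot1, an acyl-CoA thioesterase, had 19.3, 12.3, 12.4 and 15.04 CPM in flox/flox and 72.7, 57.2, 51.6 and 47.1 CPM in flox/+ (-1.95 ± 0.16). Cyp4a10, a fatty acid omega-hydroxylase and PPAR alpha target, had 0, 1, 2 and 0 reads in flox/flox and 14, 14, 27 and 8 reads in flox/+, an 18.0-fold lower level with a 95% interval from counting error of 5.88 to 89.6. It was picked after its values were seen. Cpt1a, the gate of mitochondrial fatty acid import, had 139, 137, 161 and 163 CPM in flox/flox and 131, 119.8, 107 and 110.2 CPM in flox/+ (0.36 ± 0.10). Acadl (0.61 ± 0.12) and Etfdh (0.34 ± 0.069), of beta-oxidation and its electron transfer, rose. The thioesterase and the omega-hydroxylase were thus lower while these enzymes of mitochondrial beta-oxidation were higher. Of the fatty acid oxidation and ketogenesis genes, those called higher numbered 7 without flox/+ replicate 1.

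Nuclear genes of oxidative phosphorylation fell in 12 and rose in 4 of 36, 0 beyond 1 (median -0.025). Ndufa1 (-0.27 ± 0.086), Ndufb10 (-0.58 ± 0.060) and Ndufb8 (-0.46 ± 0.061), subunits of complex I, fell. Uqcrfs1, the iron-sulfur protein of complex III, rose (0.22 ± 0.052), as did Atp5a1 of the ATP synthase (0.19 ± 0.051). Of the 13 genes of the mitochondrial genome 0 were called by edgeR's quasi-likelihood test, 0 had an unadjusted p under 0.05, and DESeq2 called 0. Among them mt-Nd1 had 4271, 4366, 4618 and 5182 CPM in flox/flox and 3813, 3924, 4405 and 4574 CPM in flox/+ (0.14 ± 0.10). Some calls were lost when a library was left out, on Ndufa1 (without flox/+ replicate 1, edgeR adjusted p 0.0563). Of the mitochondrial genome genes, those called higher numbered 1 without flox/+ replicate 4.

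Xenobiotic and retinoid genes fell more often than they rose. Cytochrome P450 and conjugation genes fell in 12 and rose in 3 of 31 (median -0.35). Cyp3a11, the main drug-oxidising P450 of the mouse intestine, had 59.1, 50.02, 79.3 and 71.6 CPM in flox/flox and 369.6, 260.4, 144 and 125 CPM in flox/+ (-1.79 ± 0.35). Cyp2c29 fell as well (-0.84 ± 0.10), and in CreER-only organoids it had 98.6, 119.9, 126 and 90.6 CPM, above the flox/+ levels by a called difference (edgeR adjusted p 0.0146). Ces2a, a carboxylesterase, had 824, 913, 913 and 906 CPM in flox/flox and 543, 501, 276 and 335 CPM in flox/+ (1.10 ± 0.19), and Sult1d1, a sulfotransferase, rose (1.16 ± 0.26). These gene families have close paralogs. Retinoid genes fell in 7 and rose in 1 of 14 (median -0.40). Rbp2, the cellular retinol-binding protein of enterocytes, was not called (0.16 ± 0.28). Bco1, which cleaves beta-carotene, had 0.601, 0.0662, 0.475 and 0.478 CPM in flox/flox and 2.31, 1.93, 2.77 and 2.57 CPM in flox/+ (-2.54 ± 0.36). Rdh7, a retinol dehydrogenase, fell (-2.18 ± 0.30), and Aldh1a3, which makes retinoic acid, rose from a low level (1.01 ± 0.34). Without certain libraries the threshold was missed by Aldh1a3 (without flox/flox replicates 2 or 3 or flox/+ replicates 1 or 3, edgeR adjusted p 0.0542 to 0.0631). Of the retinoid metabolism genes, those called higher numbered 0 without flox/flox replicates 2 or 3 or flox/+ replicate 3, 2 without flox/+ replicate 1 and 3 without flox/flox replicate 1.

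NRF2 antioxidant genes fell in 10 and rose in 1 of 20 (median -0.20). Nqo1, a quinone reductase, was lower (-0.48 ± 0.15). Taldo1, of the pentose phosphate pathway, had 276, 283, 244 and 265 CPM in flox/flox and 426, 389, 396 and 413 CPM in flox/+ (-0.61 ± 0.060). Sod1, superoxide dismutase, had 238, 223, 211 and 232 CPM in flox/flox and 373, 323, 322 and 317 CPM in flox/+ (-0.56 ± 0.066). Abcc1, a conjugate exporter, was slightly higher (0.19 ± 0.068). MHC class II and interferon genes rose in 3 and fell in 3 of 19 tested of 28, under the shares of all genes, and Cd74, the invariant chain, did not pass the filter on low counts. Stat2 (0.60 ± 0.11) and Oasl2 (1.44 ± 0.43) rose, the latter with 1.67, 1.79, 6.00 and 5.67 CPM in flox/flox and 0.924, 1.51, 1.70 and 1.45 CPM in flox/+, high in replicates 3 and 4. Ifitm3, an antiviral membrane protein also high in crypt stem cells, had 12.2, 23.0, 32.2 and 28.1 CPM in flox/flox and 87.5, 94.4, 95.3 and 87.7 CPM in flox/+ (-1.93 ± 0.24). Psmb9, an immunoproteasome subunit, fell (-1.13 ± 0.36). Leaving out single libraries ended the call on Nqo1 (without flox/flox replicate 2 or flox/+ replicates 1 or 2, edgeR adjusted p 0.0565 to 0.0619), Abcc1 (without flox/flox replicates 3 or 4 or flox/+ replicates 1 or 4, edgeR adjusted p 0.0645 to 0.0957) and Psmb9 (without flox/flox replicate 2 or flox/+ replicate 4, edgeR adjusted p 0.0512 to 0.0646). Of the NRF2 antioxidant genes, those called higher numbered 0 without flox/flox replicates 3 or 4 or flox/+ replicate 4 and 2 without flox/flox replicate 2. Of the MHC class II and interferon genes, those called higher numbered 6 without flox/flox replicate 1. Of the MHC class II and interferon genes, those called lower numbered 1 without flox/flox replicate 2 and 5 without flox/flox replicate 3.

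Whether the response differs between organoids and fetal spheroids was tested as an interaction over both kinds of culture. The edgeR test called 8 of 15043 genes (0.0532%), 5 more positive in organoids (0.0332%) and 3 more negative (0.0199%), and 1294 had an unadjusted p under 0.05. Leaving out single organoid libraries left 0 to 3 calls, with 3 without flox/+ replicate 1, 1 without flox/flox replicate 4 and 0 without any of the other 6. DESeq2 called 135. Fgfr2, an FGF receptor, had log2 fold changes of -0.20 ± 0.083 in organoids and -3.31 in spheroids, a difference of 3.10 ± 0.50 (edgeR adjusted p 0.0301). Clca1 had 1.95 ± 0.33 against -2.81 (difference 4.76 ± 0.80). Celsr1 had 2.18 ± 0.12 against 0.16 (difference 2.02 ± 0.34), its flox/+ spheroids at 23.3 to 66.3 CPM standing above the flox/+ organoids at 9.44 to 15.1 CPM on a scale common to both. Zmat3 had 2.09 ± 0.18 against 0.60 (difference 1.49 ± 0.26), and Mpp7, a junction scaffold, 0.28 ± 0.073 against -0.74 (difference 1.02 ± 0.18).

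The other 3 genes fell in organoids. Tubb2b, a beta-tubulin, had 13.9, 11.7, 12.8 and 11.4 CPM in flox/flox and 40.7, 50.4, 56.1 and 52.4 CPM in flox/+ (-2.004 ± 0.10). Its value in spheroids was 0.030 ± 0.19 (difference -2.03 ± 0.30). Fgfr4 had -0.90 ± 0.10 against 0.46 ± 0.13 (difference -1.35 ± 0.21), and Chn2, a RAC-inactivating chimerin, -1.24 ± 0.091 against -0.19 ± 0.11 (difference -1.05 ± 0.17). Organoid and spheroid libraries differ in culture type, and other differences between the cultures cannot be told apart from it.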

How the data were processed

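Poly(A) RNA was sequenced from directional dUTP libraries, per the labels' protocols, and the authors deposited raw read counts per gene. HISAT2 2.0.5 and the builds GRCm38 and mm10 are named in the submitters' processing notes. The counting program, annotation and strand setting are not given in the sources used here, so antisense and overlapping genes may share reads. Columns were joined to samples by the column names in the labels, and 0 columns of unmapped samples were present.

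Counts were tested with edgeR 4.0.16 (R 4.3.3, limma 3.58.1): filterByExpr by group, TMM scaling, a robust quasi-likelihood fit of the 12 organoid libraries given 4-OHT, an F-test and Benjamini-Hochberg adjustment over all tested genes, called under 0.05. The SE is the size of the log2 fold change divided by the square root of F. Organoids and spheroids were fitted together for the interaction, and the first organoid set separately. The first set's replicates come from the same lines in both arms, per the labels. In the second set replicate numbers only name lines: deviations of same-numbered libraries correlated at -0.11, -0.048, 0.044 and -0.16. No libraries were duplicates (smallest chi-square per degree of freedom 6.26). The fit was also run on simulated counts in which few genes were changed, as many up as down. Calls here were far more numerous and, beyond a doubling or halving, unequal. That run therefore does not measure the error rate of these calls.

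Named genes are Eif4g2, the 10 largest rises and falls among called genes (average log2 CPM 3 or more, groups apart, symbol not of a predicted gene), the first member and the 2 members of smallest p in each direction of each of 41 lists, and the interaction's 5 of smallest p in each direction. Members and lists were chosen with earlier results of these data known. Intervals cover counting error only (exact, 95%). Alternatives were DESeq2 1.42.0, its size factors, no filter, 8 libraries, a replicate block, leaving out each library, flox/flox replicates 3 and 4 alone and a test against a fold of 1.5. A few genes that this rule names are not reported here.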

Additional observations from a re-analysis of the deposited data

Results flagged for a closer look

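In 19 of 408 groups of 4 libraries, over the genes given here, 1 library lay far from the other 3 by Dixon's criterion at its 95% level, and chance alone flags about 1 in 20 groups. In flox/+ replicate 1 this held for Atf4 at 268 CPM (others 226 to 230.2 CPM), Capg at 13.1 CPM (others 7.24 to 7.95 CPM), Nupr1 at 22.8 CPM (others 30.4 to 31.7 CPM), Plin2 at 103 CPM (others 74.0 to 76.6 CPM), Sod1 at 373 CPM (others 317 to 323 CPM) and Zmat3 at 46.8 CPM (others 31.0 to 32.7 CPM). In flox/+ replicate 2 this held for Guca2a at 37.4 CPM (others 50.4 to 52.3 CPM). In flox/+ replicate 4 this held for Egf at 2.45 CPM (others 1.39 to 1.47 CPM) and Tjp1 at 197 CPM (others 212 to 214 CPM). In flox/flox replicate 1 this held for Ces2a at 824 CPM (others 906 to 913 CPM), Ndufa1 at 29.8 CPM (others 24.97 to 25.2 CPM) and Ndufb8 at 79.3 CPM (others 70.0 to 71.2 CPM). In flox/flox replicate 2 this held for Apaf1 at 125 CPM (others 111 to 113 CPM), Cym at 0.0662 CPM (others 0 CPM) and Slc51b at 0.464 CPM (others 0.776 to 0.832 CPM). In flox/flox replicate 3 this held for Hspa5 at 918 CPM (others 1018 to 1030.2 CPM), Ppp1r15a at 28.8 CPM (others 22.3 to 23.3 CPM) and Uqcrfs1 at 242 CPM (others 220.1 to 223 CPM). In flox/flox replicate 4 this held for Kdm5c at 212 CPM (others 196 to 198 CPM). The single read of Cym makes its library stand apart only because the others had 0 reads.

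The effect of genotype differed between organoids and fetal spheroids at 8 genes by edgeR's interaction test, with adjusted p of 0.0268 to 0.0301 (organoid minus spheroid log2 fold change). It was more positive in organoids for Fgfr2 at 3.10, Celsr1 at 2.02, Clca1 at 4.76, Mpp7 at 1.02 and Zmat3 at 1.49. It was more negative for Tubb2b at -2.03, Fgfr4 at -1.35 and Chn2 at -1.05.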

How the results depend on the processing

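Counts of called genes kept to within 1.5 times of 6660 under DESeq2 (6852), its size factors (6675), no filter (6409), 8 libraries (6289), flox/flox replicates 3 and 4 alone (6182) and each library left out (5901 to 6553). A test against a fold of 1.5 called 1332 genes, 333 higher and 999 lower. With the replicate block, where the numbers pair nothing in the labels, 5158 genes were called and 12 of 183 calls among the 204 genes given were lost. In the first set the replicate block gave 6622 calls of 15297, and Clca1 was -0.039. Interaction calls numbered 135 with DESeq2, 5 without a filter and 0 to 3 with an organoid library left out. With flox/flox replicates 3 and 4 alone, list medians were -0.058 (nutrient transporter), 0.19 (proximal and distal small intestine), 0.92 (YAP and TEAD), 0.69 (EGF receptor and ligand), 0.83 (p53 target), -0.34 (integrated stress response), 0.091 (histone deacetylase), -0.14 (Polycomb and DNA methylation), -0.52 (DNA replication), 0.27 (MHC class II and interferon), 0.45 (reported eIF4G2 translation target), 0.47 (keratin, claudin and junction) and 0.92 (annexin, S100 and caveola). Over single libraries left out, medians ran from 0.47 to 0.75 (p53 target), -0.013 to 0.065 (deacetylase), -0.16 to -0.034 (Polycomb), -0.033 to 0.25 (mitochondrial genome) and 0.23 to 0.39 (junction), and the deacetylase median was -0.013 without flox/+ replicate 1 and the mitochondrial one -0.033 without flox/flox replicate 4. Genes not called that turned sign ran over single libraries left out from -0.31 to 0.55 (Alpi), -0.29 to 0.58 (Anxa1), -0.35 to 0.14 (Cyr61), -0.080 to 0.057 (Kmt2a), -0.084 to 0.013 (Rpl3) and -0.040 to 0.25 (Slc5a1). With flox/flox replicates 3 and 4 alone, Cyr61 was 0.32, Fasn -0.029 and Ly6a 0.21. In that fit 12 calls were lost in edgeR, those of Fabp1 (-0.66, adjusted p 0.0699), Nr1h4 (0.0535), Hspa5 (0.0578), Rps4x (0.0694), Dpy30 (0.0723), Reg3b (0.0781), Kif23 (0.0938), Psmb9 (0.168), Nqo1 (0.191), Hdac5 (0.205), Heatr1 (0.276) and Trp53 (0.483). Called lipid absorption genes that were lower went from 5 to 1, sterol synthesis genes that were higher from 13 to 7 and fetal and regenerative genes that were higher from 6 to 12. Replicates 3 and 4 were set apart by the numbers in their line names, and the same libraries stand apart on the second component, so this is no independent check. The cause was not tested. Y-linked transcripts as a covariate were not run, since all 12 lines carry them. At 14790237 counts and more per library, genes of few reads such as Cym, Slc14a1 and Cyp4a10 are limited by counting error.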
